A study of Mus musculus with 12 samples.

Results

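The 10 genes described here carry glucose into the cell, take it through glycolysis and decide the fate of the pyruvate and lactate that result: Slc2a1, Hk1, Hk2, Pfkp, Pfkl, Pgk1, Pkm, Ldha, Slc16a1 and Pdk1. They were chosen by symbol, and every probe set of the array that carries one of these symbols was taken, with Pkm also searched as Pkm2. This gave 24 probe sets, of which 23 passed the screen on detection and were tested, among 35622 tested in all. One Hk1 probe set (1454055_at) was detected on none of the 9 arrays with a matched detection p-value (those of all genotypes but the double-deficient) and was not tested, and 1 further probe set that matches 6 genes, Hk1 and Rpl17 among them, was not used.

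RNA from mouse small intestine was hybridised to 12 Affymetrix arrays, 3 for each of 4 genotypes, and the question was how loss of Apc and of p53 changed these genes. All mice were AhCre-positive, that is, they carried a Cre recombinase under an inducible Cyp1a promoter, and all, controls included, received 3 injections of 80 mg/kg β-naphthoflavone and were dissected at day 5. Controls had wild-type Apc and p53 (Cre+Apc+/+p53+/+), Apc-deficient mice were homozygous for the floxed Apc allele (Cre+Apcfl/flp53+/+), p53-deficient mice were p53 null with wild-type Apc (Cre+Apc+/+p53-/-), and double-deficient mice carried both changes (Cre+Apcfl/flp53-/-). Apc was therefore removed only in cells in which the promoter had driven Cre, whereas p53 was absent from the whole animal, and the RNA came from whole tissue. The ages of the mice and the number of lines are not given in the sources used here.

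Glycolysis turns glucose into pyruvate in the cytoplasm. Slc2a1 (GLUT1) carries glucose across the cell membrane, hexokinases trap glucose as glucose 6-phosphate, phosphofructokinases commit it to glycolysis, and Pgk1 and Pkm catalyse the steps that make ATP. Ldha reduces pyruvate to lactate, Slc16a1 (MCT1) moves lactate and pyruvate across the cell membrane together with protons, and Pdk1 inhibits pyruvate dehydrogenase and so holds pyruvate back from the mitochondria. Several of these genes are known targets of Myc and of hypoxia-inducible factor, and Wnt signalling is known to raise Myc in the intestinal crypt.

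Signals were read on each array as 1 value per probe set, and the values below are scaled signals, that is, signals brought to the same mean log2 level on every array, in the arbitrary units of the scanner. A gene is represented by its brightest probe set, called its lead (sets whose names end in _s_at or _x_at, which can bind related genes, were used only where no other was measured), and a change was called where the p-value of limma was under 0.05 once corrected (Benjamini-Hochberg) for the 35622 probe sets tested. All 10 leads were detected (detection p under 0.05) on all 9 arrays with a matched detection p-value. Of the 23 tested probe sets, 18 were detected on all 9 of these arrays and the other 5, for Hk1, Pfkp, Slc16a1 and Pdk1, on between 1 and 8.

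The number of detected probe sets ran from 18418 to 19450 on the control arrays and from 20540 to 21865 on the Apc-deficient and p53-deficient arrays. The spread of log2 signals within an array (SD over 35622 probe sets) was 2.02 to 2.14 in controls, 2.26 to 2.42 in Apc-deficient, 2.22 to 2.28 in p53-deficient and 2.19 to 2.32 in double-deficient samples. The brightest 10% of probe sets (3563), which hold 7 of the 10 leads (not Slc2a1, Hk1 or Pdk1), had a median log2 change of 0.42 in Apc-deficient against control samples when arrays were centred on their means, of 0.029 after quantile normalisation and of -0.25 with no scaling between arrays. Without scaling the median of all probe sets was -0.66 in that comparison and 0.96 in the interaction of Apc and p53 loss, a shift that all unscaled changes hold. Directions that turn between these scalings are named beside some members only, and those of all member changes given are listed in the last section. The list of 9 measured exocrine pancreas genes stood at a median log2 signal of 12.67 on control replicate 3 and 11.17 on double-deficient replicate 3, and between 4.23 and 5.54 on the other 10 arrays, so each count was also made without those 2 arrays. Summed signals of 7 enterocyte genes were 13022 to 35876 in Apc-deficient and 16560 to 25596 in double-deficient samples, against 39966 to 48196 in controls and 60182 to 67354 in p53-deficient samples, and all 7 were called lower with Apc loss averaged over p53 status. Those of 7 proliferation genes were 16466 to 19619 and 14359 to 18715, against 6659 to 9740 and 6933 to 12173, and all 7 were called higher. Those of 7 lymphocyte genes were 765 to 1404 and 812 to 1662, against 2063 to 3810 and 1785 to 2824, and 5 were called lower. Of all probe sets, 18.2% were called higher and 14.2% lower with Apc loss averaged over p53 status. None of the 7 enterocyte genes was called in p53-deficient against control samples (smallest limma adjusted p = 0.47). In that comparison the brightest 10% of probe sets had a median log2 change of 0.31, and of 0.017 after quantile normalisation. All 7 markers of intestinal epithelium were detected on all 9 arrays with a matched detection p-value. The part of these shifts in the member results was not tested, and in whole tissue fewer cells of a type and less RNA per cell cannot be told apart.

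On the mean-centred scale 6 of the 10 members lay above 0 in Apc-deficient against control samples, as did 17834 of all 35622 probe sets. Against control, 2 of the 10 members were called in Apc-deficient samples, Hk2 and Slc16a1, both higher, where 27.1% of all probe sets were called. After quantile normalisation Pfkp was called lower as well, in the authors' normalised table Pfkp, Pkm and Ldha were called lower beside them, and without scaling Hk2 was called higher and Pfkp and Pkm lower. Averaged over p53 status (6 arrays without Apc against 6 with it), 4 members were called, where 32.4% of all probe sets were called. Hk2, Slc2a1 and Slc16a1 were higher, where 18.2% of all probe sets were called higher, and Pfkp was lower, where 14.2% were called lower. Which members were called depended on the scaling. Quantile normalisation and the authors' normalised table each called 2 members higher (Hk2 and Slc16a1) and 3 lower (Pfkp, Pkm and Ldha). Without scaling 1 was called higher (Hk2) and 1 lower (Pfkp). The directions of Hk2, Slc2a1, Slc16a1 and Pfkp did not turn between these scalings. The shares of members called, 2 and 4 of 10, were near those of the array as a whole. Averaged over p53 status, the median log2 change of the 10 members was 0.022 on the mean-centred scale. It was -0.014 for all probe sets and 0.17 for the brightest 10%.

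**Figure D1:**
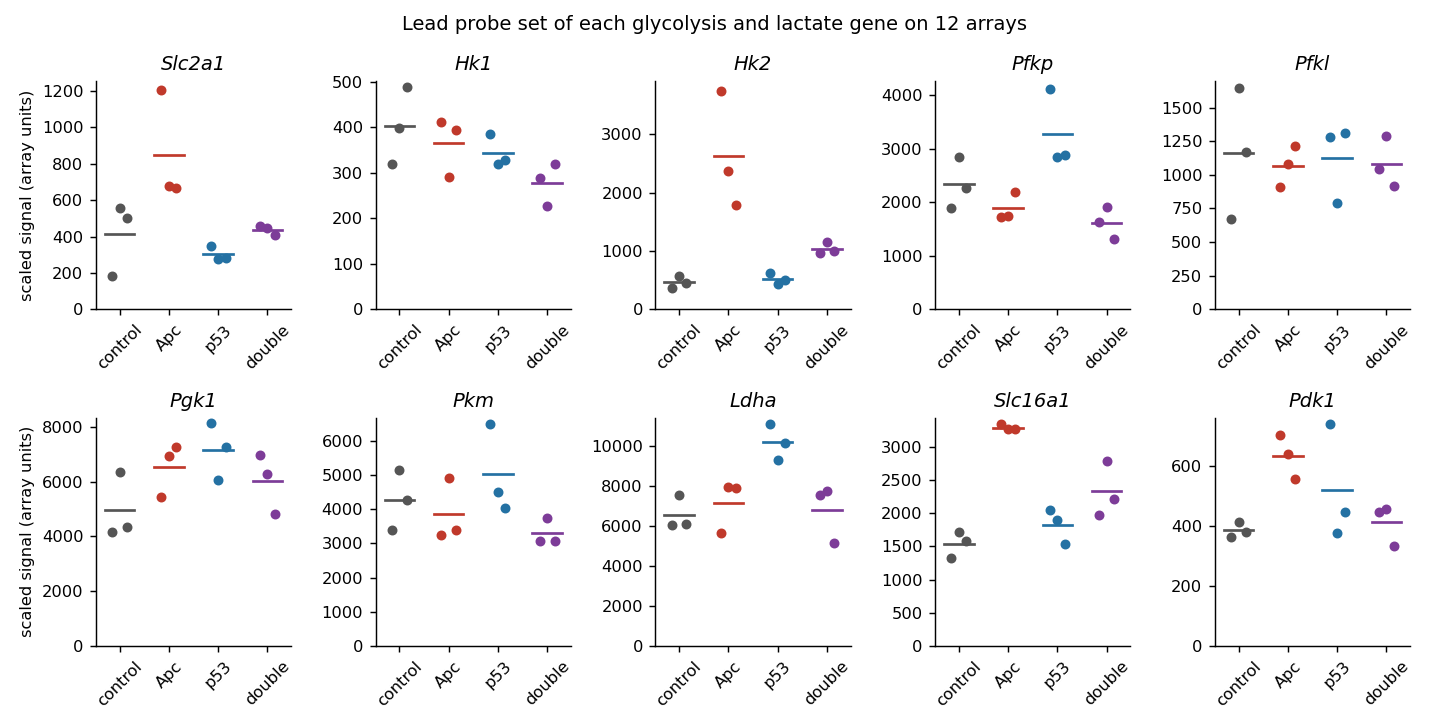
Scaled signal (array units, linear axis from 0) of the lead probe set of each gene on each of the 12 arrays, as points, with the mean of 3 arrays as a line, for control, Apc-deficient (Apc), p53-deficient (p53) and double-deficient (double) intestine. Hk2 lay between 1786 and 3743.5 in Apc-deficient samples and between 357 and 573 in controls, and Ldha lay between 9266 and 11104 in p53-deficient samples, above the control arrays. Of all probe sets, 43.1% were separated in the first of these comparisons and 25.9% in the second.

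The 250 bases upstream of the transcription start are shown for the 4 members called with Apc loss averaged over p53 status, because these genes changed and their known regulators bind short motifs. The sequences are those of RefSeq on GRCm38.p6, for 14 start sites that cover all 10 members. The motifs searched, on both strands, were these: CACGTG, the E-box that Myc and its partners bind, ACGTG, the core of the hypoxia response element, which lies inside the E-box as well, and CTTTGA, a core of the TCF/LEF site. They were found in 6.02%, 16.6% and 13.8% of 32851 mouse promoter windows of this length. Capitals mark a match to any of the motifs on either strand, and the windows lie at chr4:119108495-119108744, plus strand (Slc2a1), chr6:82774455-82774704, minus strand (Hk2), chr13:6648772-6649021, minus strand (Pfkp) and chr3:104638414-104638663, plus strand (Slc16a1).
Slc2a1: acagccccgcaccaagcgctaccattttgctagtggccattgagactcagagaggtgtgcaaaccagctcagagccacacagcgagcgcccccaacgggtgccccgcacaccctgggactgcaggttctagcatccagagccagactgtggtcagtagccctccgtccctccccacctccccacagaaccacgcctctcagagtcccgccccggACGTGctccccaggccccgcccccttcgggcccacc
Hk2: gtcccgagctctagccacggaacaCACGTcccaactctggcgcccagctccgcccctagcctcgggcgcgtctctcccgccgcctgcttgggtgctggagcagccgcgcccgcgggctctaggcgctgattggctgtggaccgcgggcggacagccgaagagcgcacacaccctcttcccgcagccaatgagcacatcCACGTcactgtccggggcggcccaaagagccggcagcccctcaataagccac
Pfkp: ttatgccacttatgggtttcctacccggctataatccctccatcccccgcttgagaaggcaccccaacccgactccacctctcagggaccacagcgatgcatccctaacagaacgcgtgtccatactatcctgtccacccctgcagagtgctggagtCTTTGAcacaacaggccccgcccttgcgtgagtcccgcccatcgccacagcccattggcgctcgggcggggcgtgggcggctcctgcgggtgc
Slc16a1: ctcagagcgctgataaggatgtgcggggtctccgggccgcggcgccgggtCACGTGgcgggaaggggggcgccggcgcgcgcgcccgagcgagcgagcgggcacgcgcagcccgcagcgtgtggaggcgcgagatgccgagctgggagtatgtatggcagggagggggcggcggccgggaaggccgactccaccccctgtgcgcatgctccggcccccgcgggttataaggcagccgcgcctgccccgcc
The window of Hk2 held 2 matches to the hypoxia response core and none to the E-box, that of Slc16a1 held 1 E-box (and with it the hypoxia core inside it on both strands), that of Slc2a1 held 1 hypoxia response core, and that of Pfkp held 1 TCF/LEF core. Among the members not called, 1 of the windows of Ldha held 2 E-boxes and a separate hypoxia response core and the other a TCF/LEF core, the window of Pgk1 held 2 hypoxia response cores and 1 of the windows of Pkm held 1. These are matches of letters, and no binding was measured.

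Slc2a1 (lead 1434773_a_at), the glucose carrier, measured 184, 559 and 502 in the 3 control samples, 1204, 679.6 and 667 in the Apc-deficient samples, 348, 277 and 279.6 in the p53-deficient samples and 459, 445 and 406.5 in the double-deficient samples. All Apc-deficient samples lay above all controls, and all double-deficient samples lay above all p53-deficient samples and below all Apc-deficient samples, while the double-deficient and control ranges overlapped. Such separation, here and for the members below, is to be read beside its share of all probe sets. That share was 43.1% in Apc-deficient and in double-deficient against control and 25.9% in p53-deficient against control. It was 21.2% in double-deficient against Apc-deficient and 33.9% in double-deficient against p53-deficient samples. Slc2a1 was 1.79-fold higher without Apc, averaged over p53 status (log2 change 0.84 ± 0.28, SE, limma adjusted p = 0.0397). The call did not hold with quantile normalisation (0.66, adjusted p = 0.102), without scaling (0.68, adjusted p = 0.109) or in the authors' normalised table (adjusted p = 0.0736), nor when Apc-deficient replicate 1 (0.70, adjusted p = 0.0837), any one of the double-deficient arrays, p53-deficient replicate 2 or p53-deficient replicate 3 (0.81 to 0.86, adjusted p between 0.0614 and 0.0791) was left out, or control replicate 3 and double-deficient replicate 3 together (0.97, adjusted p = 0.0593).

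In Apc-deficient against control samples alone, Slc2a1 differed by 1.13 ± 0.39 on the log2 scale (adjusted p = 0.0531), and by 0.63 (adjusted p = 0.154) when control replicate 1 was left out. It was called without control replicate 2 (1.43, adjusted p = 0.0361), with a floor of 20 (adjusted p = 0.0493) and with a trend in the prior variance (adjusted p = 0.0249). On control replicate 1 the median log2 signal of the 9 smooth muscle genes was 6.18, against 9.28 and 9.67 on the other controls. The part of this difference in the Slc2a1 result was not tested. The other probe sets of Slc2a1 (1426599_a_at and 1426600_at) gave 0.62 and 0.58 in Apc-deficient against control samples, with adjusted p = 0.181 and 0.259. In Apc loss averaged over p53 status, where the lead was called, they gave 0.48 and 0.41, with adjusted p = 0.133 and 0.243. The lead differed by -0.31 in p53-deficient against control, 0.23 in double-deficient against control, -0.91 in double-deficient against Apc-deficient, 0.54 in double-deficient against p53-deficient and -0.59 in the interaction (adjusted p between 0.282 and 0.724).

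Hk2 (1422612_at), the hexokinase that is held at low levels in most adult tissues and is prominent in muscle and in many tumours, measured 357, 573 and 450.5 in controls. It measured 3743.5, 2371 and 1786 in Apc-deficient samples, 616, 435 and 498 in p53-deficient samples, and 965.5, 1151 and 996 in double-deficient samples. The 4 ranges fell into a clear order, with double-deficient samples above all control and p53-deficient samples and below all Apc-deficient samples, and with controls and p53-deficient samples overlapping. The window printed above holds 2 hypoxia response cores, 226 and 52 bases upstream of the start.

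Hk2 was 5.56-fold higher in Apc-deficient than in control samples (log2 change 2.47 ± 0.29, limma adjusted p = 0.000705), and 2.29-fold higher in double-deficient samples (1.19 ± 0.29, adjusted p = 0.0225), where 15.6% of all probe sets and 1 member were called. It was 3.35-fold higher without Apc averaged over p53 status (1.75 ± 0.20, adjusted p = 0.000281). Both the first and the averaged change were called in each of the alternatives run, with log2 changes between 2.19 and 2.72 and between 1.60 and 1.87 when 1 array was left out, whereas the change in double-deficient against control samples was not called without control replicate 1 (1.03, adjusted p = 0.0805), control replicate 3 (1.19, adjusted p = 0.0595), double-deficient replicate 2 (1.12, adjusted p = 0.083) or double-deficient replicate 3 (1.22, adjusted p = 0.0529), nor without scaling (0.94, adjusted p = 0.0957). That call was also lost without control replicate 3 and double-deficient replicate 3 together (1.22, adjusted p = 0.11).

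The change of Hk2 with Apc loss on the p53-null background was 1.02 ± 0.29 (adjusted p = 0.0511), with no overlap between double-deficient and p53-deficient samples, and it was called in 7 of 21 alternatives. The difference between the changes on the 2 backgrounds was tested as an interaction, which gave -1.46 ± 0.41 (95% confidence interval -2.36 to -0.56, adjusted p = 0.205), so a smaller change without p53 was not called. Double-deficient against Apc-deficient samples differed in Hk2 by -1.28 ± 0.29 (adjusted p = 0.089), which passed the test only with a trend in the prior variance (adjusted p = 0.0383). Its change was 0.18 in p53-deficient against control (adjusted p = 0.794).

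Hk1 (lead 1437974_a_at), the widely expressed hexokinase, had a lead signal of 320.1, 398 and 489 in controls, 412, 291 and 393 in Apc-deficient samples, 385, 320.4 and 328 in p53-deficient samples, and 289, 226 and 321 in double-deficient samples. The double-deficient arrays lay at the lower edge of the control and p53-deficient ranges, with a highest value of 321 against lowest values of 320.1 and 320.4, so that the ranges just overlapped. The change in double-deficient against control samples was -0.52 ± 0.23 (adjusted p = 0.144), which passed the test after quantile normalisation (-0.72, adjusted p = 0.0487). A second probe set of Hk1 (1420901_a_at) measured 96.2, 129.5 and 119.6 in controls and 21.4, 50.3 and 64.9 in double-deficient samples and was called lower there (-1.47, adjusted p = 0.0223). Its p53-deficient arrays, at 62.4, 44.5 and 47.8, also lay below all controls (-1.16, adjusted p = 0.1759, not called). It differed by -0.31 in double-deficient against p53-deficient samples (adjusted p = 0.6345) and by -1.07 in p53 loss averaged over Apc status (adjusted p = 0.0687). That probe set was detected on 7 of the 9 arrays with a matched detection p-value, and its call was lost without control replicate 2, control replicate 3 or double-deficient replicate 2 (adjusted p between 0.0528 and 0.063). It was also lost without control replicate 3 and double-deficient replicate 3 together (adjusted p = 0.054) and with only the genotypes compared (adjusted p = 0.0629). The lead of Hk1 differed by -0.13 in Apc-deficient against control, -0.32 in double-deficient against p53-deficient, -0.23 in Apc loss averaged over p53 status and -0.30 in p53 loss averaged over Apc status (adjusted p between 0.319 and 0.7).

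Pfkp (lead 1416069_at), the platelet-type phosphofructokinase, measured 1892, 2851 and 2268 in controls and 1729, 1753 and 2196 in Apc-deficient samples. It measured 4128, 2841 and 2889.9 in p53-deficient samples and 1636, 1915 and 1307 in double-deficient samples. The p53-deficient samples lay above all double-deficient samples, and the control and Apc-deficient ranges overlapped. Averaged over p53 status, Pfkp was lower without Apc by 0.65 on the log2 scale (-0.65 ± 0.17, limma adjusted p = 0.0151), a ratio of 0.635, and this call was lost only when control replicate 3 and double-deficient replicate 3 were both left out (-0.59, adjusted p = 0.0679).

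The larger of the Pfkp changes was that of double-deficient against p53-deficient samples, -1.02 ± 0.24 (adjusted p = 0.0275), the single member called in that comparison, where 9.4% of all probe sets were called. It was lost when any one of the 6 arrays compared was left out (adjusted p between 0.0534 and 0.0978) and without scaling (-0.66, adjusted p = 0.0897). The call was lost as well with no screen (adjusted p = 0.0518) and with only the genotypes compared (adjusted p = 0.063). Without control replicate 3 and double-deficient replicate 3 together the adjusted p was 0.14. In Apc-deficient against control samples Pfkp differed by -0.29 ± 0.24 (adjusted p = 0.398), a value that was called after quantile normalisation (-0.69, adjusted p = 0.0207). The interaction for Pfkp, -0.72 ± 0.35 (adjusted p = 0.361), was 0.30 without scaling, which is -0.67 relative to the median of all probe sets. The other probe sets of Pfkp (1430634_a_at and 1437759_at) gave -0.52 and -0.19 averaged over p53 status, and neither was called, and 1430634_a_at gave 0.063 in double-deficient against p53-deficient samples, where the lead fell. The other changes of the lead were 0.49 in p53-deficient against control, -0.53 in double-deficient against control, -0.23 in double-deficient against Apc-deficient and 0.13 in p53 loss averaged over Apc status (adjusted p between 0.157 and 0.746).

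Pfkl (lead 1439148_a_at), the liver-type phosphofructokinase, measured 672, 1649 and 1168 in controls, 912, 1079 and 1213 in Apc-deficient samples, 1282, 787.5 and 1314 in p53-deficient samples, and 1044, 1287 and 918 in double-deficient samples. The 4 ranges overlapped throughout, and control replicate 1 was again the lowest array. The change averaged over p53 status was -0.037 ± 0.23 (95% confidence interval -0.55 to 0.48), and its sign differed between alternatives. Another probe set of Pfkl, 1453541_at, which was dim, measured 90.4, 73.7 and 98 in controls and 49.6, 47.2 and 18.3 in Apc-deficient samples and was called lower there (-1.31, adjusted p = 0.0182), where the lead gave -0.039. That call was lost without control replicate 1 or control replicate 3 (adjusted p = 0.0565 and 0.0575) and with only the genotypes compared (adjusted p = 0.0737). It was also lost without control replicate 3 and double-deficient replicate 3 together (adjusted p = 0.0783). The change, still called, was -0.84 without Apc-deficient replicate 3. The lead of Pfkl differed by -0.035 in double-deficient against p53-deficient and 0.014 in p53 loss averaged over Apc status (adjusted p between 0.963 and 0.984).

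Pgk1 (lead 1417864_at), which makes the first ATP of the pathway, measured 4160.3, 6357 and 4359 in controls, 5443, 6937 and 7260.4 in Apc-deficient samples, 8139.7, 6078.5 and 7265.5 in p53-deficient samples, and 6968, 6297.5 and 4825 in double-deficient samples. Ranges of the lead overlapped in each pair of genotypes. The brighter 1438640_x_at, of the kind that can bind related genes, reached 7075 in controls. All its Apc-deficient arrays (from 7397.6) and p53-deficient arrays (from 8177.9) lay above that. It was called in neither comparison (0.52, limma adjusted p = 0.124, and 0.63, adjusted p = 0.247). In Apc-deficient against control samples the lead of Pgk1 differed by 0.42 ± 0.24 (adjusted p = 0.221). This direction turned to -0.046 after quantile normalisation, while the unscaled value of -0.25 is 0.41 relative to the median of all probe sets. Averaged over p53 status it differed by 0.081 ± 0.17, which also turned, to -0.072, with quantile normalisation. Its other changes were -0.25 in double-deficient against p53-deficient and 0.21 in p53 loss averaged over Apc status (adjusted p between 0.556 and 0.557).

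Pkm (1417308_at), which makes pyruvate, was represented by 1 probe set, so its M1 and M2 forms could not be told apart here. It measured 3386, 5157 and 4265.5 in controls, 3255.5, 4907 and 3397 in Apc-deficient samples, 6499.8, 4492 and 4046.5 in p53-deficient samples, and 3067, 3743 and 3066 in double-deficient samples. Double-deficient samples lay below all p53-deficient samples, and the Apc-deficient range overlapped the control range. With Apc loss averaged over p53 status Pkm differed by -0.37 ± 0.18 (adjusted p = 0.146). With quantile normalisation it was called lower (-0.49, adjusted p = 0.0252), as it was with the stricter screen (-0.47, adjusted p = 0.0364). The changes of Pkm were -0.15 in Apc-deficient against control, -0.58 in double-deficient against p53-deficient and 0.0068 in p53 loss averaged over Apc status (adjusted p between 0.188 and 0.99).

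Ldha (1419737_a_at), which makes lactate, measured 6039.5, 7530 and 6087 in controls and 5652, 7917 and 7887 in Apc-deficient samples. It measured 11104, 9266 and 10153 in p53-deficient samples and 7535, 7736 and 5140 in double-deficient samples. The p53-deficient arrays were the highest of the 12, and lay above all controls and all double-deficient samples. Of all probe sets, 25.9% were separated in the first of these comparisons and 33.9% in the second. Against control the p53-deficient arrays differed by 0.64 ± 0.23 (adjusted p = 0.228), which was 0.08 after quantile normalisation. No member was called in p53-deficient against control samples, where 0.342% of all probe sets were called. The unadjusted p of limma was under 0.05 for 2 members and for 5511 of the 35622 probe sets. The brightest 10% of probe sets had a median log2 change of 0.31 in that comparison, and of 0.017 after quantile normalisation.

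With Apc loss the direction of Ldha turned with quantile normalisation. In Apc-deficient against control samples it differed by 0.12 ± 0.23 (adjusted p = 0.735) on the mean-centred scale, by -0.44 after quantile normalisation and by -0.55 without scaling, which is 0.11 relative to the median of all probe sets. Averaged over p53 status it differed by -0.24 ± 0.16 (adjusted p = 0.275) and was called lower after quantile normalisation (-0.44, adjusted p = 0.0109). In the authors' normalised table it was called lower in both comparisons (adjusted p = 0.037 and 0.00696). The change of Ldha was -0.60 in double-deficient against p53-deficient (adjusted p = 0.129).

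Slc16a1 (lead 1415802_at), the lactate carrier, measured 1318.5, 1711 and 1579 in controls and 3337, 3263 and 3272 in Apc-deficient samples. It measured 2052, 1896 and 1538 in p53-deficient samples and 1977, 2791 and 2216 in double-deficient samples. The Apc-deficient arrays lay close together and above the other 9, double-deficient samples lay above all controls, and double-deficient and p53-deficient samples overlapped. The window printed above holds an E-box, 200 bases upstream of the start.

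Slc16a1 was 2.15-fold higher in Apc-deficient than in control samples (log2 change 1.11 ± 0.20, limma adjusted p = 0.00426) and 1.65-fold higher without Apc averaged over p53 status (0.73 ± 0.14, adjusted p = 0.00386). Both calls held with each array left out and were lost without scaling (0.44, adjusted p = 0.228, and 0.57, adjusted p = 0.0507). On the p53-null background the change was 0.34 ± 0.20 (95% confidence interval -0.11 to 0.79, adjusted p = 0.325). The interaction was -0.76 ± 0.29 (adjusted p = 0.274), and without scaling 0.26, which is -0.71 relative to the median of all probe sets, so a difference between the backgrounds was not called. A second, dim probe set of Slc16a1 was detected on 2 of the 9 arrays with a matched detection p-value, both Apc-deficient, and was not called. Its lead differed by 0.25 in p53-deficient against control, 0.59 in double-deficient against control, -0.51 in double-deficient against Apc-deficient and -0.13 in p53 loss averaged over Apc status (adjusted p between 0.0707 and 0.679).

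Pdk1 (lead 1423747_a_at), the kinase that restrains pyruvate dehydrogenase, measured 364, 413 and 381 in controls and 704.2, 642 and 557 in Apc-deficient samples. It measured 742, 378 and 447 in p53-deficient samples and 448, 456 and 334 in double-deficient samples. Apc-deficient samples lay above all controls and all double-deficient samples, while p53-deficient samples spanned nearly the whole range. The change in Apc-deficient against control samples was 0.71 ± 0.26 (adjusted p = 0.0634), which was 0.37 after quantile normalisation and 0.046 without scaling, or 0.71 relative to the median of all probe sets. It was called with a trend in the prior variance (adjusted p = 0.0347) and without p53-deficient replicate 1 (adjusted p = 0.0295). Double-deficient against Apc-deficient samples differed by -0.63 ± 0.26 (adjusted p = 0.262). Of the other Pdk1 probe sets, 1435836_at lay in the other direction from the lead, at -0.25 in Apc-deficient against control samples (adjusted p = 0.545). The lead of Pdk1 differed by -0.29 in double-deficient against p53-deficient, 0.21 in Apc loss averaged over p53 status and -0.13 in p53 loss averaged over Apc status (adjusted p between 0.405 and 0.769).

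**Figure D2:**
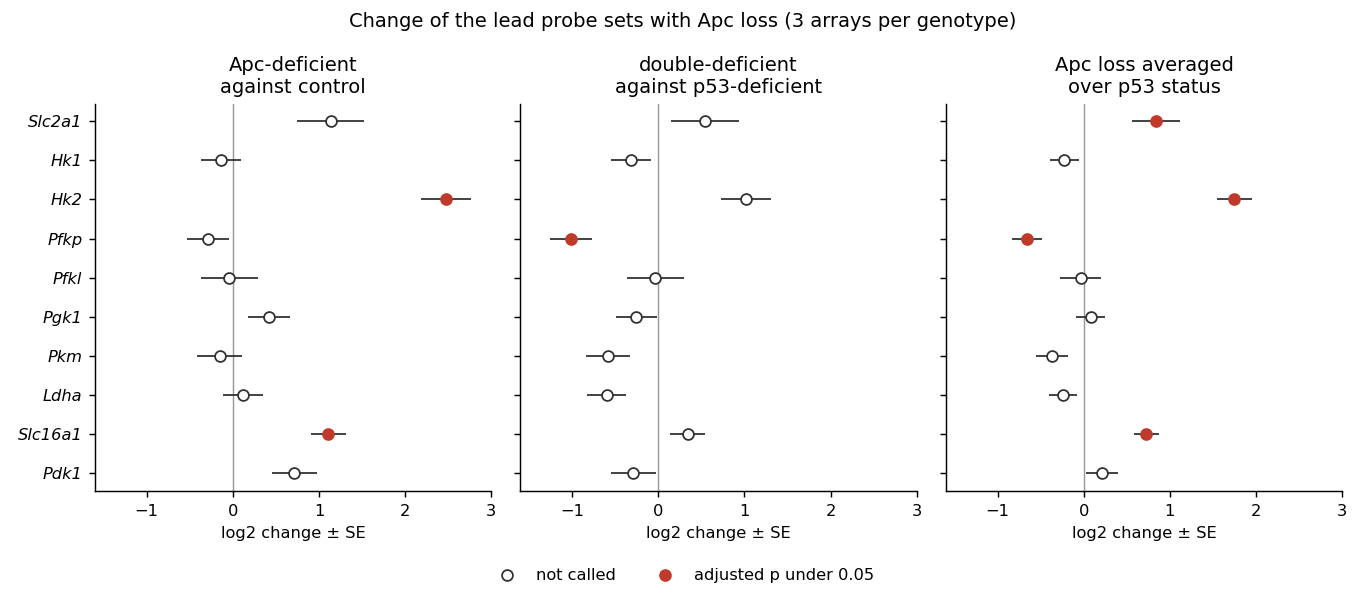
Log2 change (points) and its standard error (lines) of the lead probe set of each gene in Apc-deficient against control, double-deficient against p53-deficient, and Apc loss averaged over p53 status; filled points have an adjusted p under 0.05. Hk2 has the largest change in the first panel, 2.47, and Pfkp is the filled point of the second, at -1.02.

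In the p53 comparisons, no member was called. In double-deficient against Apc-deficient samples 0.182% of all probe sets were called and 0 of 10 members passed limma's test. An unadjusted p under 0.05 was found for 4 members and for 5888 of the 35622 probe sets. The leads of Slc2a1, Hk2, Slc16a1 and Pdk1, whose Apc-deficient arrays lay above all controls, had double-deficient arrays below all Apc-deficient arrays. In this comparison 21.2% of all probe sets were separated in one direction or the other. These comparisons share the Apc-deficient arrays, so the repeat is not independent. The other probe sets of Slc2a1 overlapped in both comparisons. Pdk1 1423748_at reached 523.2 in double-deficient samples, above its lowest Apc-deficient value of 464.5. Between Apc-deficient and control samples 43.1% of all probe sets were separated.

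Averaged over Apc status, p53 loss gave 0 called members (limma, 1 with an unadjusted p under 0.05), where 1.23% of all probe sets were called. Of the 35622 probe sets, 6240 had an unadjusted p under 0.05 there. The member changes ran from -0.61 ± 0.28 for Slc2a1 (adjusted p = 0.286) to 0.28 ± 0.16 for Ldha (adjusted p = 0.402), with Hk2 at -0.55 ± 0.20 (adjusted p = 0.199). The interaction of Apc and p53 loss gave 0 called members (limma, 4 with an unadjusted p under 0.05), where 0.0112% of all probe sets were called. Here 5237 of the 35622 probe sets had an unadjusted p under 0.05. Of the 10 interaction values of the leads 9 were below 0 on the mean-centred scale, 7 after quantile normalisation and 1 without scaling, where 9 lay below the median of all probe sets. The brightest 10% of probe sets had a median of -0.49, 0.027 and 0.54 under those scalings. On the mean-centred scale 16658 of all 35622 probe sets were above 0. So were other probe sets of Hk1 (0.18), Pfkp (1430634_a_at, 1.17) and Pfkl (0.38 and 1.48), none called. Pfkp 1437759_at and the other probe sets of Slc2a1, Pgk1, Slc16a1 and Pdk1 were below 0.

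**Figure D3:**
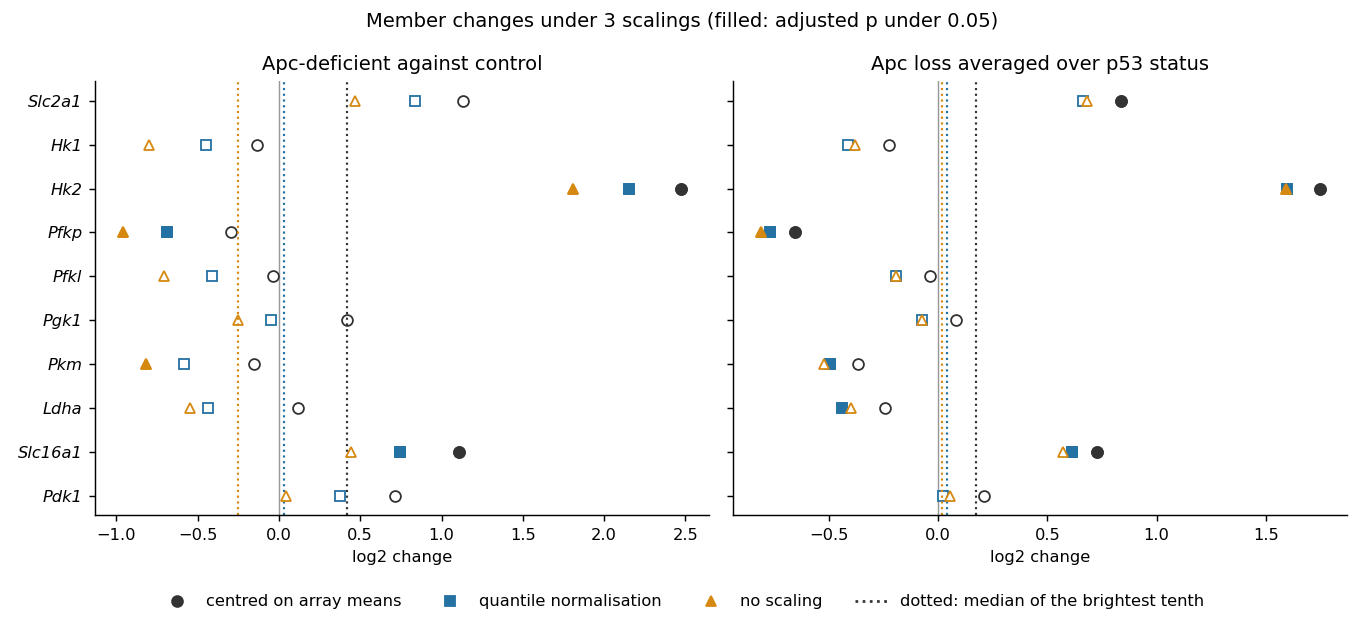
Log2 change of each lead probe set in Apc-deficient against control (left) and Apc loss averaged over p53 status (right) with arrays centred on their means, quantile normalised or not scaled; filled symbols have an adjusted p under 0.05, and dotted lines mark the median of the brightest 10% of probe sets under the scaling of the same colour. Hk2 keeps its place at the right of both panels, whereas Ldha at left moves from 0.12 to -0.44 with quantile normalisation.

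Some members varied together over the 12 arrays, which is given as a description since the points share 4 genotypes and the same scaling. Hk2 correlated with Slc16a1 at r = 0.94 and with Slc2a1 at r = 0.85, Ldha correlated with Pgk1 at r = 0.82, and Pfkp correlated with Pkm at r = 0.81. Among 10484 genes, those most like Ldha were Mdh2 (r = 0.99), Atp5h (r = 0.96) and Suclg1 (r = 0.96), all parts of mitochondrial energy metabolism. Those most like Slc16a1 were Rnpc3, Ppp2r2a and Senp2 (r between 0.96 and 0.97), and those most like Slc2a1 were Lsg1, Lama1 and Klhdc4 (r between 0.91 and 0.94). For Hk2, added after its values were seen, they were Tox3, Rbm12 and Srrm1 (r = 0.98 for each).

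None of the other measured enzymes of glycolysis was called higher with Apc loss. Of 14 listed, 12 were measured, and averaged over p53 status 0 were called higher and 4 lower. Of all probe sets 32.4% were called there, 18.2% higher and 14.2% lower, so the total of 4 in 12 was near that of the array. These shares are also those to set beside the counts averaged over p53 status in the lists below. An unadjusted p of limma under 0.05 was found for 4 of them and for 15596 of the 35622 probe sets. The median log2 change was -0.28 against -0.014 for all probe sets and 0.17 for the brightest 10%. Pfkfb4, which makes the activator of phosphofructokinase, fell by 1.07 on the log2 scale (adjusted p = 0.000529), and Bpgm, which makes 2,3-bisphosphoglycerate, fell by 0.83 (adjusted p = 0.00937). The count was 2 without both arrays that carried pancreas transcripts, 2 when control replicate 2 or 3, double-deficient replicate 3 or p53-deficient replicate 1 or 2 was left out, 2 with no screen and 8 in the authors' normalised table.

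Among genes that handle pyruvate and lactate, 2 of 13 measured were called higher and 2 lower. Slc16a3 (MCT4), the lactate exporter of strongly glycolytic cells, fell by 1.61 (adjusted p = 0.00499), the opposite direction to Slc16a1. Pdk2, a second kinase of pyruvate dehydrogenase, fell by 1.46 (adjusted p = 0.00135), and Pdp1, the phosphatase that reverses these kinases, was higher by 1.58 (adjusted p = 0.000144).

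The fructose, gluconeogenic and absorptive sugar genes were mostly lower, with 9 of 13 measured called lower and 1 (Pck2) higher and a median log2 change of -1.08. Slc2a5, the fructose carrier, fell by 2.34 (adjusted p = 0.000231), Khk, the fructokinase, fell by 2.21 (adjusted p = 0.000103) and G6pc, which releases free glucose, fell by 2.23 (adjusted p = 0.00086). In the pentose phosphate and side-branch list 2 of 10 were called, both lower, Gpd1 and Gpd2, the glycerol 3-phosphate dehydrogenases that link glycolysis to glycerol and to the mitochondria (-1.21, adjusted p = 0.0012, and -0.65, adjusted p = 0.00583), while the median log2 change was 0.27 and 7 of the 10 values were above 0. Rpia, which isomerises ribose 5-phosphate, gave 0.94 (adjusted p = 0.0541). In Apc-deficient against control samples 2 of these genes were called higher and 1 lower, where 27.1% of all probe sets were called. Those higher were Rpia (1.89, adjusted p = 0.016) and Tkt, transketolase (0.86, adjusted p = 0.0278). Tkt lies outside the naming rule and was added after its values were seen, and no gene called lower was added in this way.

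Both lists of regulators held calls in both directions. Of 11 measured hypoxia response genes, 1 was called higher and 3 lower, with Ddit4, an inhibitor of mTOR signalling, higher by 2.34 (adjusted p = 9.95e-05) and Egln3, an oxygen-sensing hydroxylase, lower (-1.26, adjusted p = 0.00258). In Apc-deficient against control samples 3 were called higher and 2 lower, where 27.1% of all probe sets were called. The changes of the list ran from -1.19 to 2.68. Those higher were Ddit4, Hif1a, the oxygen-regulated subunit of hypoxia-inducible factor (0.93, adjusted p = 0.0296), and Egln1, another hydroxylase (0.92, adjusted p = 0.0407). Hif1a and Egln1 lie outside the naming rule and were added after their values were seen, and no gene called lower was added in this way. Of 10 measured regulators linked to Myc and p53, 3 were called higher and 3 lower, against 2 and 4 after quantile normalisation and 1 and 3 without scaling. Myc itself measured 277 ± 62.3 (SD, n = 3) in controls, 1788 ± 292 in Apc-deficient, 313 ± 106 in p53-deficient and 1869 ± 705 in double-deficient samples, and was higher by 2.63 with Apc loss (2.63 ± 0.24, limma adjusted p = 0.000118). Sesn1, a p53 target, fell by 1.66 (adjusted p = 0.000684). Without both arrays that carried pancreas transcripts the counts were 2 of 11 and 3 of 10.

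**Figure D4:**
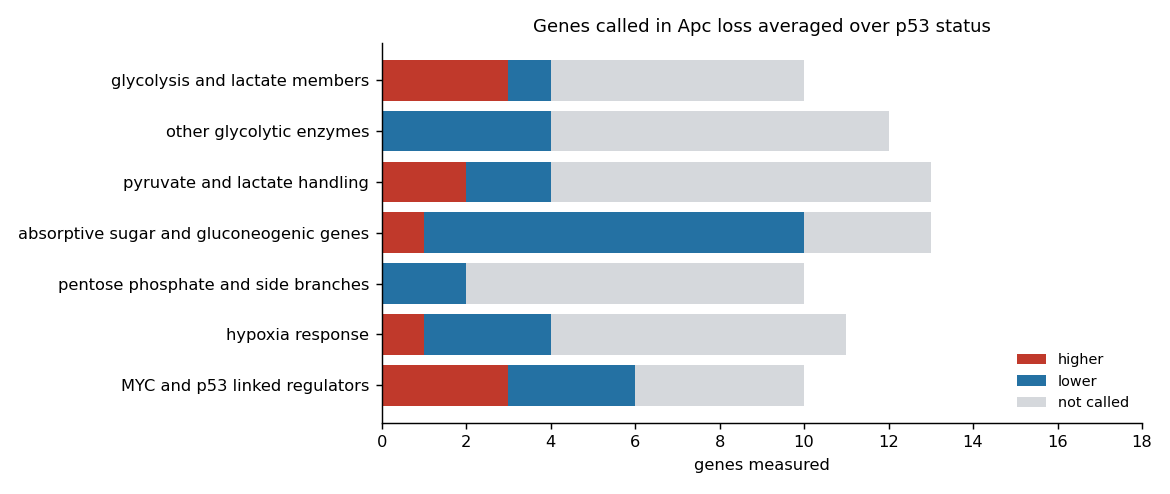
Number of measured genes called higher, called lower or not called in Apc loss averaged over p53 status, for the 10 members and 6 related gene lists. On the mean-centred scale plotted the members have 3 higher and 1 lower, against 2 higher and 3 lower after quantile normalisation, and the absorptive sugar and gluconeogenic list has 1 higher and 9 lower of 13. Of all probe sets, 18.2% were called higher and 14.2% lower.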

How the data were processed

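RNA from the small intestine of mice of 4 genotypes was measured on Affymetrix MOE430_2 arrays, 3 per genotype, and the 12 sample titles carry separate codes that were read as separate animals. The labels place the 3 injections in 1 day, whereas the methods speak of daily injections. The signal intensity of each probe set was deposited by the authors as given by the expression software (its name and version are not given in the sources used here), before any scaling between arrays, together with a detection p-value per probe set and array, also deposited by the authors. A second table deposited by the authors holds a normalised score for 34271 probe sets, which was found to be the log signal of each array minus its mean and divided by its SD, and it served as an alternative (array medians -0.105 to -0.067). The detection columns of the 3 double-deficient arrays could not be matched to single samples, and 15 columns (these 3 and 12 of detection calls) were not used. The screen therefore ran on 9 arrays instead of the 12 planned, and probe sets detected only on double-deficient arrays do not enter. Codes in the column names differ between the genotypes, and if they mark runs, run and genotype cannot be told apart.

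Of 45101 probe sets, 64 hybridisation controls were dropped, and so were all that none of the 9 arrays detected at p under 0.2, the threshold of the authors' screen, so that 35622 were tested. A floor of 1 (775 values lay under it) was set before log2 was taken, and each array was centred on its mean, after the authors' global geometric mean. limma 3.58.1 in R 4.3.3 was fitted with a mean for each genotype, leaving 8 residual degrees of freedom. Its p-values were corrected (Benjamini-Hochberg) for all probe sets tested, with a call at 0.05. The script was tested on simulated data. The number of arrays limits the precision, and p-values measure only the spread between these samples; groups of 3 allow no exact permutation p under 0.1. Members and gene lists were chosen with earlier results of these data known. The genes named are the 10 members by their lead, and of each metabolic or regulator list up to 4 genes, those with the smallest p or the largest change with Apc loss averaged over p53 status. Of the probe sets kept, 27434 carried 1 gene symbol in the platform's annotation, 749 several and 7439 none, and 14 were named from their description, a step chosen after the files were seen, as were the promoter window of 250 bases and the comparison with the brightest 10% of probe sets. Alternatives were quantile normalisation, no scaling, the authors' table, no screen or a stricter one, a floor of 20, a trend in the prior variance, only the genotypes compared, the median of all probe sets of a gene, each array left out, and 2 arrays left out together.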

Additional observations from a re-analysis of the deposited data

How the results depend on the processing

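Hk2 with Apc loss stayed called in all 21 alternatives against control and all 20 averaged over p53 status; none of the 8 called member changes turned sign in any of 169 values. The number of members called in Apc-deficient against control samples, 2, became 5 in the authors' table and 4 with a trend in the prior variance (2 to 3 with 1 array left out). In double-deficient against control samples, 1 became 3 with quantile normalisation, 3 in the authors' table, 2 with the stricter screen, 2 with the trend, 0 with no scaling, 0 without control replicate 3 and double-deficient replicate 3 together, and 0 to 1 with 1 array left out. In double-deficient against Apc-deficient samples, 0 became 1 with the trend. In double-deficient against p53-deficient samples, 1 became 2 with the stricter screen, the floor of 20 or the trend, 0 with no screen, 0 without both those arrays, and 0 to 2 with 1 array left out. Averaged over p53 status, 4 (3 higher, 1 lower) became 5 with quantile normalisation and 5 in the authors' table (2 higher, 3 lower in each), 2 with no scaling (1 higher, 1 lower) and 2 without both arrays (3 to 4 with 1 array left out). The cause was not tested. All counts of 0 are from limma.

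Each member was planned to be given in each comparison. After their values were seen, 59 of the 80 pairs of member and comparison were kept in the text. Of these 21 turned sign in at least 1 alternative, against 19 of the 21 pairs left out, and in all 138 of 1706 values turned (93 of them other than by leaving out 1 array). With no scaling, Slc2a1 gave -0.029 in double-deficient against control and 0.43 in the interaction, Hk1 0.038 in double-deficient against p53-deficient, Hk2 -0.43 in p53-deficient against control, Pfkp -0.12 there, 0.18 in double-deficient against Apc-deficient and 0.30 in the interaction, Pfkl 0.32 in double-deficient against p53-deficient and -0.087 in p53 loss averaged, Pgk1 -0.25 in Apc-deficient against control, 0.10 in double-deficient against p53-deficient and -0.075 in Apc loss averaged, Pkm -0.094 in p53 loss averaged, Ldha -0.55 in Apc-deficient against control, Slc16a1 -0.36 in p53-deficient against control and 0.26 in the interaction, and Pdk1 0.063 in double-deficient against p53-deficient. With quantile normalisation, Pfkp gave 0.0026 in double-deficient against Apc-deficient, Pfkl 0.033 in double-deficient against p53-deficient, Pgk1 -0.046 in Apc-deficient against control and -0.072 averaged, Pkm -0.062 in p53 loss averaged, Ldha -0.44 in Apc-deficient against control and Slc16a1 -0.018 in p53-deficient against control. In the authors' table (SD units) the same comparisons gave 0.00051 for Pfkp, -0.12 and -0.11 for Pgk1, -0.0094 for Pkm, -0.28 for Ldha and -0.0024 for Slc16a1. With the median of all probe sets of a gene, Pfkp gave 0.16 in double-deficient against Apc-deficient, Pfkl 0.16 in double-deficient against p53-deficient, Slc16a1 -0.16 in p53-deficient against control and Pdk1 0.11 in p53 loss averaged. With no screen, Pfkl gave 0.056 in Apc-deficient against control and 0.021 averaged. With the stricter screen, Pgk1 gave -0.021 in Apc loss averaged, Pkm -0.0026 in p53 loss averaged and Ldha -0.061 in Apc-deficient against control, and with the floor of 20 Pkm gave -0.00041 in p53 loss averaged. Without control replicate 3 and double-deficient replicate 3, Hk1 gave 0.017 and Pfkl 0.011 in Apc-deficient against control, and Pfkl 0.077 in double-deficient against p53-deficient and 0.044 in Apc loss averaged. With 1 array left out, Slc2a1 ran from -0.28 to 0.52 in double-deficient against control, Hk1 from -0.29 to 0.022 and Pfkl from -0.39 to 0.26 in Apc-deficient against control, Pfkl from -0.28 to 0.094 in double-deficient against p53-deficient, from -0.21 to 0.11 in Apc loss averaged and from -0.16 to 0.16 in p53 loss averaged, and Pkm from -0.095 to 0.10 there.

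With no scaling, the median of all probe sets shifted by -0.66 in Apc-deficient, -0.56 in p53-deficient and -0.26 in double-deficient against control, by 0.37 and 0.35 in double-deficient against Apc-deficient and p53-deficient, by -0.17 in Apc loss averaged and by 0.96 in the interaction, so unscaled values are read relative to it, and 16 of the 17 signs that turned with no scaling did not turn relative to it. The share of calls that were higher was then 10.1%, 3.15%, 30%, 94.3%, 84.8%, 40.3% and 99.4%, against 59.3%, 50.8%, 60.4%, 66.2%, 51.8%, 56.2% and 25%, and 38.6% against 57.5% in p53 loss averaged; quantile normalisation gave 61.8% in p53-deficient against control. No paired analysis was possible because the labels give no replicate numbers that the genotypes share. The number of arrays limits what could be called, and signals of dim probe sets, such as those of Pfkl and Hk1 named above, are least certain.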
